A study of Caenorhabditis elegans with 357 samples.

Results

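The last 100 min of the fourth larval stage (L4) were compared with the 100 min before them in single Caenorhabditis elegans animals that carry the tph-1(mg280) II allele (strain MT15434). The gene tph-1 codes for tryptophan hydroxylase, with which serotonin synthesis starts. The late window held 21 animals at 500 min or more of L4, and the reference window held 26 animals at 400 to under 500 min. They were chosen by strain and labelled time alone, and they are 47 of the 357 animals of the series and of its 164 tph-1 animals. Each library is 1 whole animal. Every animal was hatched from a bleached egg, kept by itself in an arena on UV-killed OP50 bacteria and imaged, then cut with a needle and lysed; polyA RNA was copied by SMART-seq2. The wild-type strain N2, kept in the same way, was used for the test of a strain difference, with 49 animals at 400 to under 500 min and 28 at 500 min or more. A mutant group of 1 strain and 1 allele cannot separate the allele from the rest of that strain's background.

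L4 ends with the last molt. Before each molt the epidermis secretes a new cuticle under the old one, built mostly from collagens that are made in timed waves, while apical matrix proteins, hedgehog-related proteins and proteases shape and release the layers. The L4 animal also completes its germline: the hermaphrodite gonad makes sperm first and then turns to oocytes, and the intestine begins to make yolk for them. Serotonin acts mainly on feeding, egg laying and locomotion in this animal.

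The labelled time ran from 407.7 to 497.9 min in the reference window (median 456.9) and from 500.1 to 596.0 min in the late window (median 534.0). The libraries at 400-500 min held 631047 to 4753605 reads in genes (median 1989246) and those at 500-600 min 615491 to 3470573 (median 1640694), so that 1 read was worth between 0.210 and 1.625 RPM (a gene's reads scaled to a common library total). The number after the strain in the label titles, called set here, splits the animals: sets 1, 2, 3 and 4 gave 6, 12, 7 and 1 animals to the reference window and 1, 9, 11 and 0 to the late one. The labels do not define the set. Set 3 animals were later within both windows, with a mean of 465.2 and 545.3 min against 451.8 and 524.3 min in set 2. Log2 reads in genes, the number of genes at 1 RPM and the mitochondrial share of reads did not differ detectably between the windows when labels were permuted within sets (two-sided permutation test of 100000 resamples, p = 0.574, 0.816 and 0.168, adjusted over the 3 measures 0.816, 0.816 and 0.503). The mitochondrial share was 2.17% ± 0.77 (SD, n = 26) and 1.85% ± 0.76 (SD, n = 21).

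Between the 2 windows, 1094 of 12620 tested genes rose and 940 fell (limma on log2(RPM + 1) with set as a covariate, Benjamini-Hochberg adjusted p under 0.05), which is 8.67% and 7.45% of the genes tested. By at least 1 log2 unit, 274 genes (2.17%) rose and 402 (3.19%) fell. The median change over all genes tested was -0.01. Counts for the gene lists below are to be read beside the 8.67% and 7.45% of all genes. Cuticle collagens stood at both ends of the ranking, yolk, sperm and oocyte genes were among those that rose, and molting genes were among those that fell. The windows overlapped in each of the genes tested. Of the 2034 genes that passed, 1918 had the same sign in sets 2 and 3 taken alone. The change from window to window differed between sets 2 and 3 in 0 of 13029 genes by limma, with 961 at an unadjusted p under 0.05. The slope over minutes was lower in set 3 for 167 of those genes (1.28%) and higher for 51 (0.391%). Leaving out the 1 late animal of set 1, replicate 21 at 596.0 min, lowered the counts to 733 and 700; without all of set 1 they were 647 and 634.

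The animals nearest to the border of 500 min differed among themselves. At 497.9 min a set 2 animal held 2153 RPM of the falling collagen col-63 and 2580 RPM of the rising collagen col-81. At 500.1 min a set 3 animal held 45.8 RPM of col-63 and 12083 RPM of col-81. At 504.1 min a set 2 animal still held 7525 RPM of col-63 and 439 RPM of col-81. Without the animals within 15 min of the border, 1686 genes rose and 1118 fell.

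Cuticle collagens were among the largest falls. sqt-1 encodes a cuticle collagen that sets body shape (WBGene00005016, chromosome II, 11336693 to 11337837, WBcel235). It had a lowest, median and highest level of 14.9, 3355 and 9487 RPM at 400-500 min and of 1.32, 13.8 and 1212 RPM at 500-600 min. All 21 late animals were below the median of the reference animals, and 11 were below every one of them. Its log2 change was -4.998 ± 0.69 (SE; adjusted p = 6.9e-07). The decline came before the border: the median over all animals was 6535 RPM at 400-450 min (n = 12), 191 RPM at 450-500 min (n = 14), 53.4 RPM at 500-550 min (n = 14) and 7.31 RPM at 550-600 min (n = 7).

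col-63 fell later than sqt-1. Its level was 232, 8592 and 16331 RPM (lowest, median, highest) in the reference window and 0.739, 25.9 and 7525 RPM in the late window, a log2 change of -5.61 ± 0.70 (adjusted p = 1.7e-07). Its medians by 50 min were 13206, 3862, 489 and 15.5 RPM. The late animals were all below the reference median, and 13 of 21 were below the lowest reference animal. col-49 fell last of these: its level was 2583, 5666 and 7677 RPM before and 0, 1031 and 5420 RPM after 500 min, with 50 min medians of 6754, 4795, 3050 and 6.65 RPM. Its log2 change was -4.46 ± 0.86 (adjusted p = 0.00017). With edgeR's quasi-likelihood test on the recovered reads, col-49 and rol-1 did not pass, and they missed it in set 2 alone, while they passed under the other alternatives tried. rol-1, named for the rolling movement of its mutants, changed by -4.33 ± 0.86, from a median of 8381 to 1614 RPM.

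**Figure D1:**
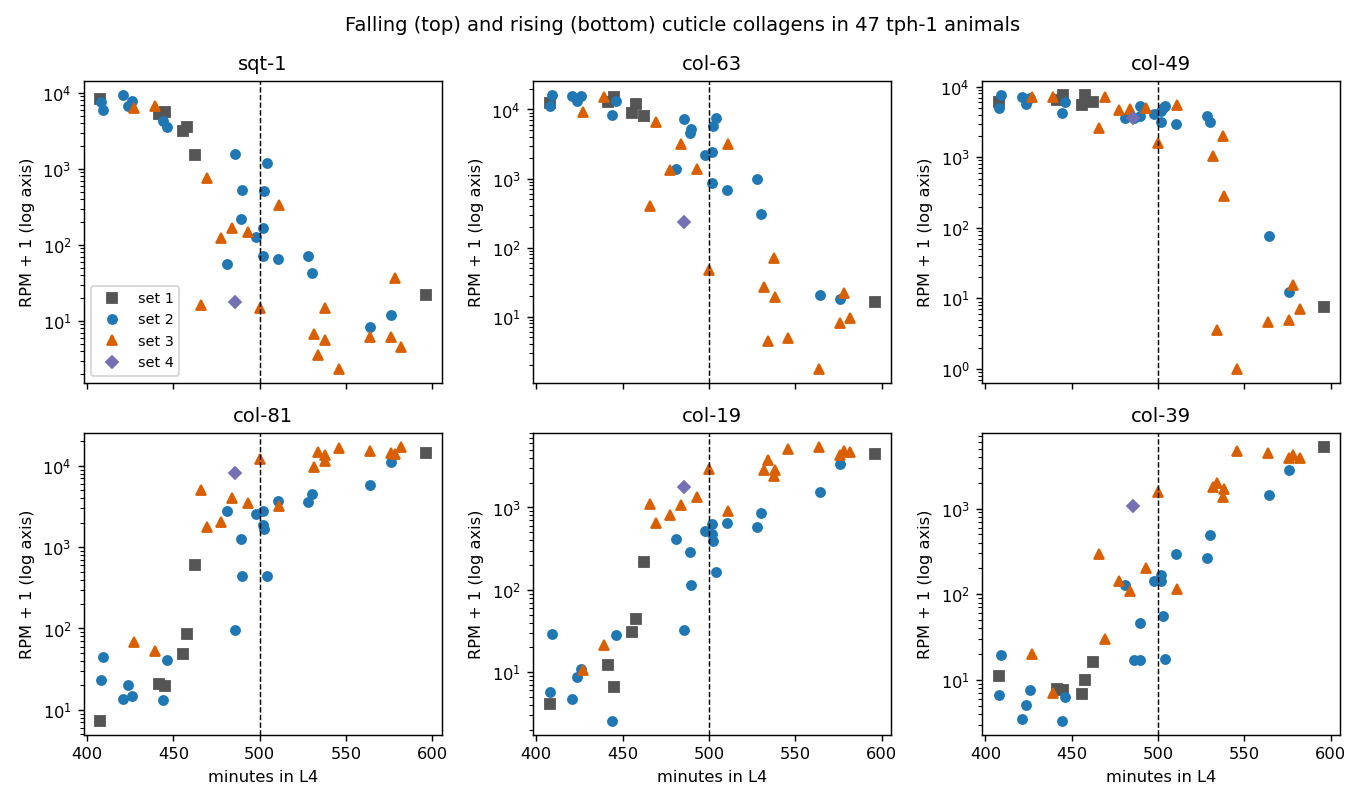
Levels of 3 falling collagens (top) and 3 rising collagens (bottom) in the 47 tph-1 animals, as RPM + 1 on a log axis against minutes in L4. Each point is 1 animal, marked by set, and the dashed line is at 500 min. Before 500 min sqt-1 reaches down to 14.9 RPM, whereas col-49 stays at or above 2583 RPM. At 500-550 min set 3 animals lie above most set 2 animals in col-81, and they were mostly later (500.1 to 546 min against 501.7 to 530 min).

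The other genes among the 12 largest falls were the collagens rol-8 (-4.62 ± 0.63) and sqt-3 (-4.29 ± 0.58), the hedgehog-related gene wrt-4 (-4.60 ± 0.56), and K02E11.10 (-4.998 ± 0.66), ZK180.6 (-4.58 ± 0.57), F40E10.5 (-4.35 ± 0.71), T19C3.2 (-4.31 ± 0.58) and E01G4.6 (-4.31 ± 0.74), to which no role is given here. rol-8 went from 10.7, 1682 and 5518 RPM (lowest, median, highest) to 2.88, 7.76 and 768 RPM. sqt-3 went from 90.0, 6033 and 14120 RPM to 23.2, 68.1 and 3748 RPM. Late and reference animals overlapped in both, and all 21 late animals stood below the reference median. Within set 2 the 12 falls ranged from -4.73 to -1.94, and within set 3 from -7.14 to -3.30.

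Collagens were among the largest rises as well. col-81 (WBGene00000657, chromosome II, 11012397 to 11013767) had a level of 6.27, 76.1 and 8112 RPM at 400-500 min and of 439, 11145 and 17156 RPM at 500-600 min. Every late animal was above the reference median, and 12 of 21 were above the highest reference animal. The log2 change was 4.64 ± 0.65 (adjusted p = 9.4e-07). Its 50 min medians were 19.5, 1914, 4106 and 14264 RPM. At 500-550 min the 7 set 3 animals had a median of 12083 RPM and the 7 set 2 animals one of 2816 RPM. Within that bin the set 3 animals were at 500.1 to 546 min and mostly later than the set 2 animals, at 501.7 to 530 min. A difference of the sets at equal time was not tested.

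col-19, a collagen of the adult cuticle that is used as a marker of the switch from larval to adult epidermis (WBGene00000608, chromosome X, 421707 to 422691), went from 1.54, 30.6 and 1796 RPM to 161, 2881 and 5468 RPM, a log2 change of 4.304 ± 0.61 (adjusted p = 1.1e-06). All 21 late animals were above the reference median. It was at or below a mean of 6.56 RPM in every window before 400 min. col-62 went from 0, 0.888 and 18.6 RPM to 0, 63.6 and 941 RPM (4.44 ± 0.67), with 9 of 26 reference animals and 1 late animal without a read. col-7 went from 0, 1.41 and 8.998 RPM to 0, 25.9 and 1159 RPM (3.71 ± 0.72), and 16 of 21 late animals were above its reference median. Of the 4 collagens listed for the adult cuticle, col-19 and col-7 rose, bli-2 fell and bli-1 did not pass (-0.62 ± 0.26), although it did in 5 alternatives, among them TMM rescaling (-0.63) and edgeR (-0.99).

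Other rising collagens had been high at the start of L4 as well. col-39 had the largest rise, 4.89 ± 0.54 (adjusted p = 3.1e-08), from 2.31, 15.6 and 1066 RPM to 16.5, 1576 and 5254 RPM. Its mean was 3460 RPM at 0-100 min, 309 RPM at 100-200 min, 3.53 RPM at 300-400 min and 1938 RPM at 500-600 min. col-146 (4.35 ± 0.68) and col-147 (3.97 ± 0.79) had means of 1203 and 3904 RPM at 0-100 min and of 1146 and 694 RPM in the late window. In set 2 alone col-146 changed by 2.19 and col-147 by 1.30, and neither passed the test there. F11E6.3 (4.76 ± 0.63) and ZK512.7 (4.63 ± 0.56) followed the same course, from means of 888 and 106 RPM at 0-100 min to 640 and 311 RPM at 500-600 min. Y37D8A.19, the remaining gene among the 12 largest rises beside the vitellogenins and col-179, changed by 3.96 ± 0.50. It shares exon sequence with rbm-7, and ZK512.7 with eat-4, both on the opposite strand; the use of strand in counting is not given in the sources used here.

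**Figure D2:**
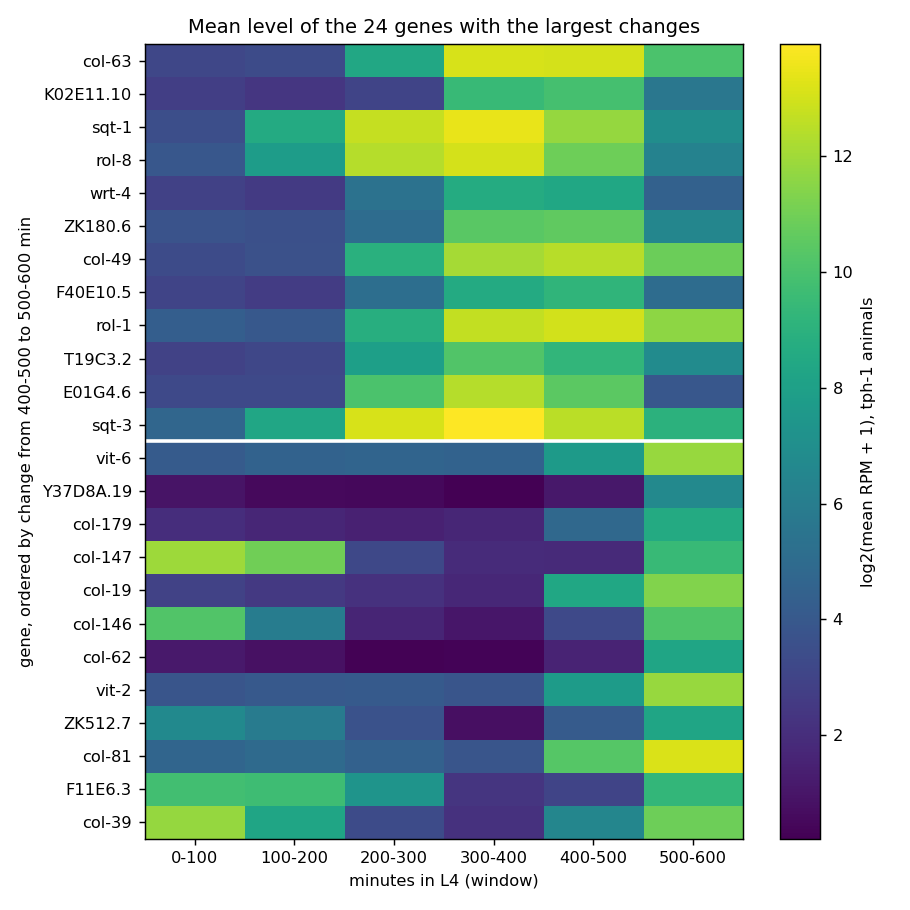
Mean level in tph-1 animals over the 6 windows of 100 min (columns; 18, 29, 42, 28, 26 and 21 animals) for the 12 genes with the largest falls (above the white line) and the 12 with the largest rises (below it), as log2(mean RPM + 1). The falling genes are high at 300-500 min. In the first and the last of these windows col-39, col-146, col-147, F11E6.3 and ZK512.7 are high, while col-19, col-62, col-81, vit-2 and vit-6 are high in the last.

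Over all 6 windows, 158 of the 274 genes that rose by at least 1 log2 unit (57.7%) had their highest mean at 500-600 min and 107 (39.1%) had it at 0-100 min. Of the 402 that fell by at least 1, 182 (45.3%) were highest at 300-400 min and 139 (34.6%) at 400-500 min. Among all genes tested, 61.8% were highest at 0-100 min, 2.97% at 300-400 min, 3.502% at 400-500 min and 15.7% at 500-600 min. The windows compared here entered these means, so the peaks describe the genes and test nothing.

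As a family, 144 of 175 cuticle collagens were tested; 46 rose and 38 fell, 31.9% and 26.4% of them, and their median change was -0.06. By at least 1 log2 unit, 37 rose and 34 fell. The collagens took 20.96% of all reads in the median reference animal (12.6% to 25.9%) and 20.4% in the median late animal (13.9% to 33.4%), and the ranges overlapped widely. Further falling collagens were the body shape genes sqt-2 (-4.20 ± 0.59), dpy-5 (-3.81 ± 0.76), dpy-13 (-3.58 ± 0.78), lon-3 (-3.49 ± 0.59) and rol-6 (-3.23 ± 0.49), and bli-2 (-2.99 ± 0.57), whose product belongs to the struts of the adult cuticle. Further rising ones were col-20 (3.52 ± 0.44), col-119 (3.34 ± 0.41) and col-179 (3.96 ± 0.40). col-147 and col-179 share exon sequence with genes on the opposite strand (T06E4.5 and C34F6.11), and collagens close in sequence may share reads, so these single values are uncertain. Of the 37 collagens that rose by at least 1, 10 had a mean at 0-100 min at least 2-fold above that at 400-500 min and 18 had one at least 2-fold below it. The furrow collagens, which form the ridged bands of the cuticle, were low: 3 of 6 were tested, and dpy-8 alone passed (-0.50 ± 0.17), a call lost when any 1 of 23 animals was left out. edgeR called 40 collagens higher and 20 lower, so the number of falling ones depends on the test.

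The enzymes that modify and process collagens moved both ways, with 3 of 9 higher and 3 lower (33.3% each, median change 0.34). Among all genes 8.67% rose and 7.45% fell. The prolyl 4-hydroxylase subunits dpy-18 (-1.18 ± 0.37) and phy-2 (-0.79 ± 0.18) and the disulfide isomerase pdi-2 (-0.66 ± 0.15), which act on collagen chains inside the cell, fell. phy-2 went from 11.3, 33.04 and 67.7 RPM to 8.28, 17.6 and 32.9 RPM. The heme peroxidase mlt-7, which acts on the extracellular cuticle, rose by 1.81 ± 0.42, from 8.41, 18.5 and 43.2 RPM to 12.4, 46.4 and 624 RPM, with 12 of 21 late animals above every reference animal. bli-4, a proprotein convertase that trims collagens, rose by 0.45 ± 0.13, and doxa-1, the maturation factor of a dual oxidase, by 0.65 ± 0.21. Without set 3, mlt-7, bli-4, dpy-18 and phy-2 did not pass, and pdi-2 did not without set 2.

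Genes needed for molting fell: 10 of 16 tested members passed, all downward, against 7.45% of all genes, with a median of -0.83. mlt-8 went from 4.88, 90.5 and 185 RPM to 0, 3.45 and 89.6 RPM, a change of -3.09 ± 0.39 (adjusted p = 2.2e-07). The patched-related gene ptr-4 changed by -2.26 ± 0.33, from 4.40, 34.9 and 86.9 RPM to 0, 4.27 and 30.3 RPM. lrp-1, an endocytic receptor of the epidermis, changed by -1.88 ± 0.26, and 15 of 21 late animals were below every reference animal. acn-1, related to peptidases, changed by -2.03 ± 0.34. The astacin proteases nas-36 (-0.17) and nas-37 (-0.16), which act at shedding, did not pass. The count was 9 without set 1, 9 without set 2 and 7 without set 3.

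Of 10 transcription factors and other regulators of the molting cycle, 4 fell and 0 rose by limma (median -0.43; 5 of 10 had an unadjusted p under 0.05). The zinc finger factor bed-3 went from 0.562, 21.2 and 69.2 RPM to 0, 1.29 and 10.7 RPM (-2.34 ± 0.46). lin-42, the worm relative of the clock gene period, went from 5.62, 22.8 and 80.8 RPM to 2.22, 14.4 and 31.8 RPM (-1.05 ± 0.21). All 21 late animals were below the reference median in bed-3, and 19 of 21 were in lin-42. myrf-1 (-0.70 ± 0.19) and myrf-2 (-0.45 ± 0.12), membrane-bound factors that act on stage transitions, also fell. nhr-23, a nuclear receptor that drives the molts, had medians of 14.2 and 14.3 RPM and a change of 0.03 ± 0.15. Of 16 heterochronic genes, which time larval fates, 2 fell (12.5%) and 1 rose (6.25%), near the 7.45% and 8.67% of all genes: dre-1, an F-box gene, by -1.11 ± 0.21 and kin-20, a casein kinase, by 0.56 ± 0.18. kin-20 did not pass without set 2 or without set 3. lin-29, which directs the switch to adult epidermis, had a change of -0.34 and did not pass. alg-1 (-0.41 ± 0.13) passed, but not when reference replicate 7 (427.1 min) or late replicate 21 was left out.

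Hedgehog-related genes, secreted proteins of the nematode cuticle and epidermis, had 12 of 33 tested members lower (36.4%) and 3 higher (9.09%), with a median of -0.33. Among all genes 7.45% fell and 8.67% rose. wrt-4 (WBGene00006950, chromosome X, 15752257 to 15757269) fell from 3.37, 280 and 836 RPM to 0, 2.699 and 213 RPM, with 2 late animals without a read (adjusted p = 1.7e-07). wrt-6 (-2.47 ± 0.37), wrt-9 (-1.60 ± 0.23) and grd-1 (-1.76 ± 0.30) also fell. grl-4 rose by 3.46 ± 0.46, from 0, 4.81 and 106 RPM to 4.92, 169 and 657 RPM, with 12 late animals above every reference animal. Of 30 astacin metalloproteases tested, 6 fell (20%) and 4 rose (13.3%), with a median of -0.07. nas-15 changed by -2.39 ± 0.36, nas-14 by -2.06 ± 0.37 and nas-6 by -1.80 ± 0.31, whereas nas-20 rose by 2.07 ± 0.33. Of 10 apical matrix genes tested, 1 fell and 1 rose (10% each), near the shares of all genes. These were let-4 (-0.54 ± 0.18) and egg-6 (0.63 ± 0.15), both leucine-rich repeat proteins. let-4 lost its call when any 1 of 9 animals was left out, and it did not pass without set 1.

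Genes of the pharyngeal cuticle rose in 17 of 26 tested members and fell in 3, with a median change of 1.72. Their summed share of reads did not rise with that count. It was 0.415% in the median reference animal (0.102% to 0.645%) and 0.259% in the median late animal (0.0261% to 0.737%). Examples are abu-7 (2.27 ± 0.43; 0, 4.35 and 56.8 RPM before and 3.96, 13.7 and 232 RPM after 500 min) and abu-15 (2.62 ± 0.51). The members that fell were abu-13 (-3.85 ± 0.52), abu-12 (-3.40 ± 0.42) and abu-14 (-2.44 ± 0.62). abu-13 went from 5.46, 164 and 459 RPM to 0, 3.695 and 113 RPM, and 14 of 21 late animals were below every reference animal. Only 9 members rose without set 1 and 8 without set 3. In set 2 alone 7 rose and 3 fell, and in set 3 alone 2 rose and 2 fell. Several fipr and abu genes are similar in sequence, so single members are uncertain. Genes of pharyngeal muscle and gland had 1 of 12 lower (8.33%), near the 7.45% of all genes. It was phat-1 at -1.10 ± 0.37, a call lost when any 1 of 6 animals was left out. In that list 7 members had an unadjusted p under 0.05 and the median was -0.56. With all 6 windows in the fit 6 fell and 1 rose, and edgeR called 0 lower and 1 higher.

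**Figure D3:**
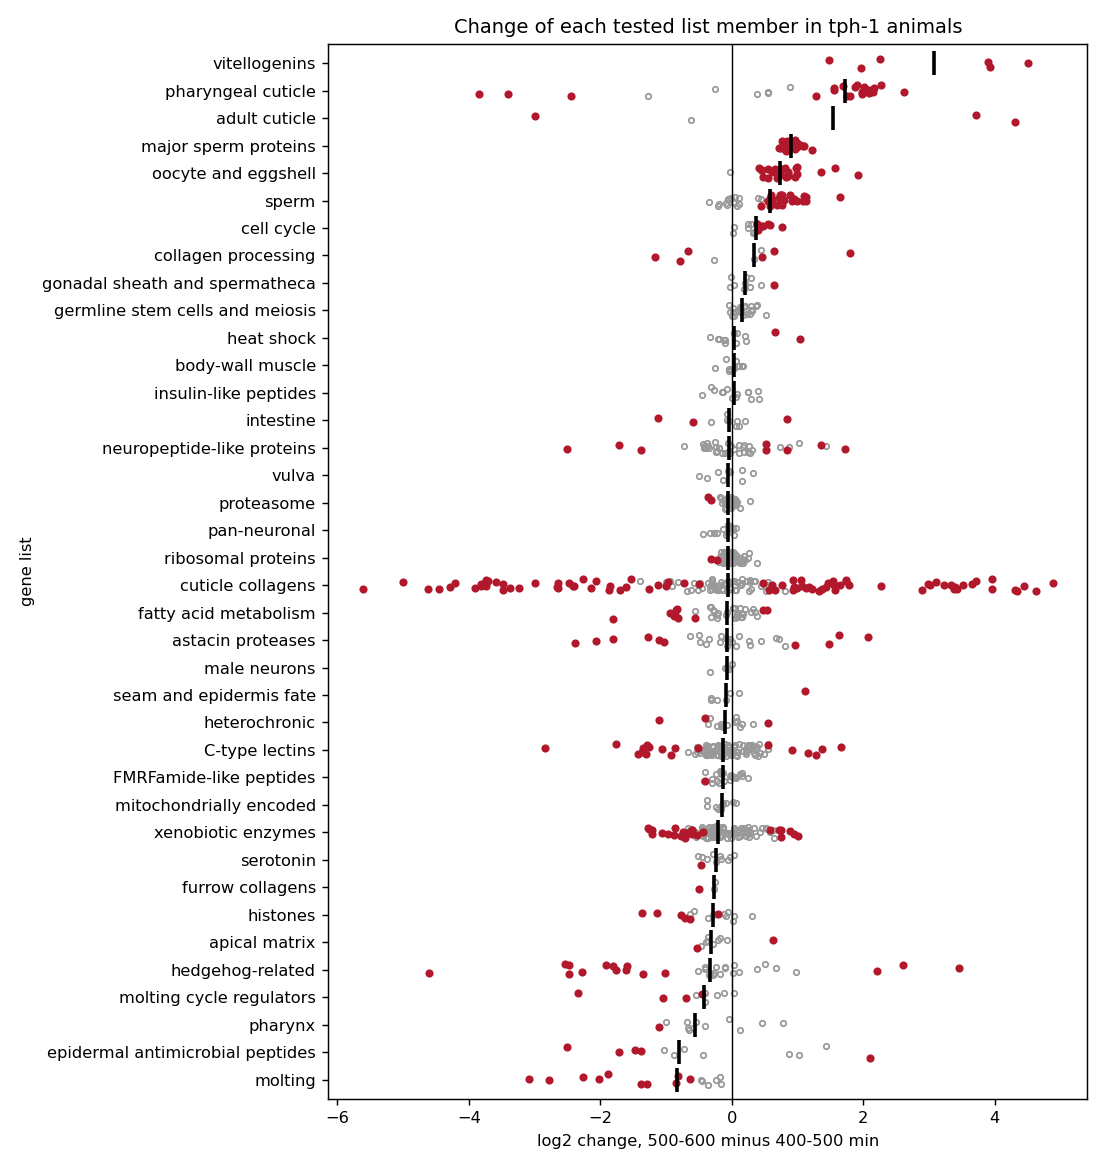
Log2 change from 400-500 to 500-600 min of each tested member of the 38 gene lists in tph-1 animals; filled points passed the test (limma adjusted p under 0.05), open points did not, and the black bar is the list's median. Cuticle collagens reach both ends of the axis, all 6 vitellogenins and all 30 major sperm proteins lie on the right, and molting genes lie on the left.

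All 6 vitellogenins, the yolk proteins made by the intestine, rose, with a median change of 3.08 beside -0.01 over all genes. vit-2 (WBGene00006926, chromosome X, 5101042 to 5106169) went from 3.73, 32.6 and 2213 RPM to 60.1, 1730 and 13073 RPM, a change of 4.51 ± 0.60 (adjusted p = 4.2e-07). All 21 late animals were above the reference median, and 10 were above every reference animal. vit-6 went from 13.2, 39.7 and 1550 RPM to 54.4, 2028 and 12135 RPM (3.92 ± 0.51), with 13 late animals above every reference animal. vit-5 changed by 3.90 ± 0.64, vit-4 by 2.25 ± 0.44, vit-1 by 1.97 ± 0.39 and vit-3 by 1.48 ± 0.30; near-identical copies in this family make single values uncertain, as does C42D8.9 on the strand opposite vit-2. Together they took 0.0114% of reads in the median reference animal (0.00292% to 0.400%) and 0.393% in the median late animal (0.0150% to 2.77%). The 50 min medians of vit-2 were 14.1, 247, 1010 and 6416 RPM. In set 2 alone 3 of the 6 passed, and in set 3 alone 4 did. Other intestinal genes did not rise together. Of 11 markers 1 rose (9.09%) and 2 fell (18.2%), beside 8.67% and 7.45% of all genes. The intermediate filament gene ifb-2 rose (0.83 ± 0.15), and the protease cpr-1 (-1.12 ± 0.24) and the factor elt-7 (-0.59 ± 0.18) fell. The main intestinal factor, elt-2, had medians of 11.6 and 11.03 RPM. elt-7 did not pass without late replicate 21 or without set 1 (-0.49).

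In whole animals, more cells of a type and more RNA per cell cannot be told apart, which holds for the germline genes here. Oocyte and eggshell genes rose in 25 of 27 members, with a median of 0.73. perm-2, needed for the eggshell's permeability barrier, went from 3.17, 49.5 and 186 RPM to 65.9, 187 and 1468 RPM, a change of 1.93 ± 0.32 (adjusted p = 1.6e-05), and every late animal was above the reference median. perm-4, needed for the same barrier, rose by 1.58 ± 0.26, and the RNA-binding proteins puf-5 by 0.99 ± 0.20 and spn-4 by 0.85 ± 0.16. The list took 0.166% of reads in the median reference animal and 0.272% in the median late animal. Without set 1, 16 members rose, and without set 3, 11 did.

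The major sperm proteins drive the crawling of nematode sperm; all 30 tested members rose, with changes from 0.72 to 1.21 and a median of 0.90. msp-33 went from 143, 1020 and 2905 RPM to 381, 1830 and 3683 RPM (0.95 ± 0.23, adjusted p = 0.0024). The windows overlapped widely: 16 of 21 late animals were above the reference median, and 4 were above every reference animal. Their summed share was 1.81% of reads (0.271% to 5.19%) and 3.21% (0.807% to 6.47%) in the median animals. These genes are near-identical copies and do not give 30 separate observations. In sets 2 and 3 taken alone 0 of 30 passed, with medians of 0.57 and 1.11, without set 3 only 3 passed, and with all 6 windows in the fit 2 did. Other sperm genes rose in 27 of 43 members (median 0.59), among them nspd-3 (1.09 ± 0.22) and the fertilization gene spe-11 (0.59 ± 0.13); with all 6 windows in the fit 8 rose.

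Germline stem cell and meiosis genes had 0 of 22 members past the test in limma, with 7 at an unadjusted p under 0.05, a median of 0.16 and 1 call by edgeR. Without the animals within 15 min of the border 6 of them rose, without set 2 3 rose, and 0 fell in either. In N2, 15 of the 22 rose and 0 fell, beside 32.2% of all genes that rose there. The list's marker glp-1, the germline Notch receptor, had medians of 38.3 and 48.6 RPM (0.31 ± 0.12, adjusted p = 0.071). It passed in 7 of 18 alternatives. Of 16 cell cycle genes 7 rose (median 0.38), such as mcm-7, a subunit of the replicative helicase, by 0.59 ± 0.15. That count was 1 without set 1 and 0 without set 3. inx-8, a gap junction gene of the gonadal sheath, rose by 0.65 ± 0.14 as the 1 of 10 sheath and spermatheca genes that passed. That is 10%, near the 8.67% of all genes that rose. Of 17 histones tested 6 fell and 0 rose (limma, 9 at an unadjusted p under 0.05; median -0.29), with the linker histone his-24 at -1.13 ± 0.18. The list has 50 members, and most histone mRNAs lack a polyA tail.

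**Figure D4:**
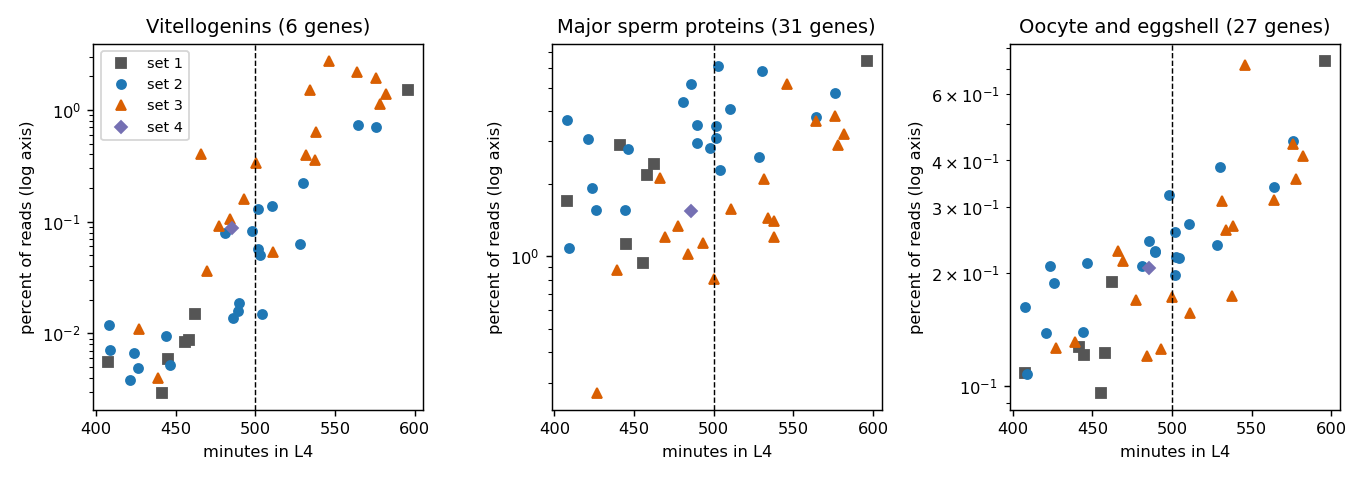
Share of reads, in percent on a log axis, taken by vitellogenins, major sperm proteins and oocyte and eggshell genes in each of the 47 tph-1 animals against minutes in L4, marked by set, with the dashed line at 500 min. Vitellogenins run from 0.00292% to 2.77% of reads, and the windows overlap in all 3 groups of genes.

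Epidermal antimicrobial peptides had 4 of 12 tested members lower and 1 higher (median -0.80). nlp-33 went from 4084, 7855 and 13167 RPM to 89.6, 3357 and 9800 RPM, a change of -1.71 ± 0.39 (adjusted p = 0.0014), and 11 of 21 late animals were below every reference animal. nlp-30 changed by -2.51 ± 0.56; neither gene passed with edgeR or in set 2 alone, and nlp-33 did not pass without set 3. cnc-8 rose by 2.11 ± 0.36, from 3.14, 35.8 and 141 RPM to 41.5, 97.4 and 594 RPM, with every late animal above the reference median. Among the neuropeptide-like genes, which share nlp-30 and nlp-33 with that list, 5 of 42 rose (11.9%) and 3 fell (7.14%), near the 8.67% and 7.45% of all genes. Among them nlp-24 rose by 1.73 ± 0.43 and nlp-67 by 1.36 ± 0.31. nlp-24 did not pass without set 3.

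Among all tested genes 7.45% fell and 8.67% rose, and the metabolic and defence families are given beside those shares. Of 37 fatty acid genes, 8 fell (21.6%) and 2 rose (5.41%), with a median of -0.07: the acyl-CoA synthetase acs-20, which acts on cuticle lipids, by -1.81 ± 0.29, the elongase elo-2 by -0.94 ± 0.17 and the desaturase fat-6 by -0.81 ± 0.17. Without set 3, 2 fell. Of 122 cytochrome P450, glucuronosyltransferase and glutathione transferase genes, 18 fell (14.8%) and 7 rose (5.74%), with a median of -0.22 and cyp-29A2 at -1.22 ± 0.21. Of 119 C-type lectins, 12 fell (10.1%) and 6 rose (5.04%), with a median of -0.14 and with clec-230 at -2.84 ± 0.48 and clec-91 at 1.67 ± 0.32; these lectin shares are near those of all genes, and without the animals within 15 min of the border 13 fell and 12 rose.

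Neuronal, muscle, housekeeping and some further lists are given beside the 8.67% of all genes that rose and the 7.45% that fell. Lists of 5 to 14 genes are too short for 0 calls to be told apart from these shares. By limma 0 of 14 pan-neuronal genes, 0 of 12 body-wall muscle genes, 0 of 12 mitochondrially encoded genes, 0 of 14 insulin-like peptides and 0 of 10 vulval genes passed, each list with 1 gene at an unadjusted p under 0.05 and with 0 calls by edgeR. Of 25 FMRFamide-like peptides 1 fell (4%), which was flp-14 (-0.41 ± 0.12). Of 76 ribosomal proteins 2 fell (2.63%), by at most 0.31 on the log2 scale. After rescaling of the libraries by TMM (trimmed mean of M values), or with edgeR, 0 of them fell. Of 33 proteasome subunits 2 fell (6.06%), with pbs-5 at -0.36 ± 0.07. Of 14 heat shock genes 2 rose (14.3%), with hsp-43 at 1.04 ± 0.19. Of 7 seam and epidermis genes 1 rose (14.3%), which was elt-3, a GATA factor of the epidermis (1.12 ± 0.27, not without set 3). Genes of male-specific neurons had 0 of 5 called (0 at an unadjusted p under 0.05, 0 by edgeR) and took at most 0.00935% of reads.

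The tph-1 transcript was low in both windows and was not tested: its lowest, median and highest level was 0, 1.01 and 7.92 RPM in 26 animals and 0, 1.07 and 5.52 RPM in 21. In N2 the medians were 2.49 and 2.27 RPM. What mg280 changes in the gene is not stated in the labels, the value is summed over the whole gene, and other genes overlap its exons, so it does not check the genotype. Of 11 serotonin genes tested, 1 fell (9.09%), near the 7.45% of all genes. It was bas-1, the decarboxylase that follows tph-1 in the pathway (limma, -0.47 ± 0.16, adjusted p = 0.032). bas-1 lost its call when any 1 of 8 animals was left out. Receptors and the transporter mod-5 did not pass, with changes from -0.51 to 0.04.

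The same step was then set beside N2, in 1 fit of both strains with an interaction of strain and window. In N2, 4067 of 12642 genes rose (32.2%) and 1251 fell (9.9%), with a median change of 0.20. These N2 counts came from RPM without rescaling and from 49 and 28 animals, against 26 and 21 in tph-1. How far scaling and the number of animals moved the N2 counts, and the overlaps given next, was not tested. All 24 genes with the largest changes in tph-1 changed in the same direction in N2 and passed there. Of these 24, 0 passed the test of a strain difference, beside 0.554% of all genes. With so low a share, 0 of 24 does not show that the changes were equal. Of the 1089 genes that rose in tph-1 and were in this fit, 1035 (95.04%) also rose in N2, which is 25.4% of those that rose in N2. Of 933 that fell in tph-1, 762 (81.7%) fell in N2, 60.9% of those that fell in N2. The median late animal was at 534.0 min in tph-1 and 543.0 min in N2.

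The log2 change from window to window was lower (less positive or more negative) in tph-1 than in N2 for 70 genes (0.554%) and higher for 0 by limma, with 1326 and 243 genes at an unadjusted p under 0.05; edgeR called 42 and 39. The median difference over all genes was -0.19 and became -0.02 after rescaling by TMM, a shift of 0.17, under which 30 of the 70 passed and all 70 kept their sign. Of the 70, 68 rose in N2; in tph-1 alone 10 rose, 4 fell, 50 did not pass and 6 were not tested. None of the 38 lists held more than 4 of them. The lists held gst-22, gst-38, ugt-29 and ugt-31 among 126 detoxification enzymes in this fit. They also held clec-67 among 114 C-type lectins and elo-2 among 37 fatty acid genes, beside 0.554% of all genes.

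lys-2, a lysozyme gene, had medians of 35.1 RPM at 400-500 min and 212 RPM at 500-600 min in N2 and of 66.5 and 42.8 RPM in tph-1. The changes were 2.34 ± 0.30 and -0.06 ± 0.33, a difference of -2.40 ± 0.48 (adjusted p = 0.0025). The late tph-1 animals spread from 20.1 to 935 RPM, with 5 above and 3 below every reference animal. By 50 min the tph-1 medians were 80.8, 47.3, 39.1 and 255 RPM, and those of N2 were 51.8, 22.3, 145 and 220 RPM (n = 24, 25, 15 and 13), and the strains' ranges overlapped in each of the 4 bins. clec-67, a C-type lectin, rose by 2.08 ± 0.22 in N2 and had a change of -0.05 ± 0.26 in tph-1 (difference -2.14 ± 0.35, adjusted p = 0.00017). Its medians at 500-550 min were 14.5 RPM in N2 and 10.4 RPM in tph-1, and at 550-600 min 30.4 and 21.1 RPM. The 50 min values were not tested.

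**Figure D5:**
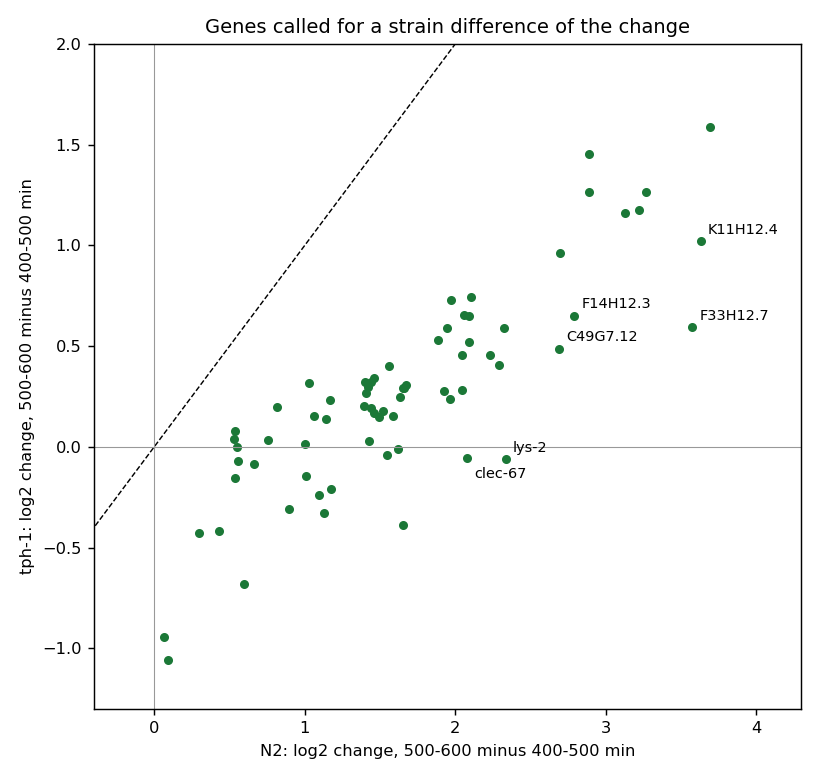
Log2 change from 400-500 to 500-600 min in N2 (horizontal) and tph-1 (vertical) for the 70 genes called for a strain difference of that change, from the joint fit; the dashed line marks equal changes and the 6 genes with the largest differences are named. All points lie below the line, and 68 of the 70 genes passed as higher in N2. In the separate fit of tph-1 alone, which is not plotted, 10 passed as higher, 4 passed as lower, 50 did not pass and 6 were not tested.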

How the data were processed

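The authors deposited 1 table per strain in RPM, a unit that the table names give: each gene's reads scaled so that a library's listed genes reach the same total. The submitters' processing notes list STAR 2.7.9a. Genome build, annotation, counting tool and strand use: not given in the sources used here. Nextera libraries are named in the labels' protocols. Every value was a whole multiple of 1 read within 0.1 reads (100% in each library), so reads were recovered. The reads carry no molecular identifiers, so they are not counts of molecules, and 1 read limits what a single animal can show. All table columns were mapped to samples by label title. Of 12620 tested symbols, 12229 matched Ensembl 115 (WBcel235), which gave identifiers and coordinates; the build of the reads is not known.

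A gene was tested if 10% or more of the animals had 5 RPM or more, using limma 3.58.1 (trend, R 4.3.3) on log2(RPM + 1), with set as a covariate and Benjamini-Hochberg adjustment over all tested genes. The scale understates changes of low genes. Errors of log2 changes are SE. The strain difference was the interaction in 1 fit of both strains with an intercept for each set of each strain. edgeR 4.0.16 (quasi-likelihood test, with set) ran on recovered reads as an alternative; others changed the pseudocount (0.5 or 5 RPM), filter, scaling, covariates, animals and border. The code was tested on simulated data. The comparison, the 38 lists, the named genes and the alternatives were chosen with earlier results of these data known. Named genes are the 12 largest changes in each direction among genes that passed, had 1 sign in sets 2 and 3 and reached a mean of 10 RPM; up to 4 members per list with the smallest p and the list's first gene; and the 6 largest strain differences of each sign. Others named in the text, such as further collagens, were chosen after their values were seen. Animals are separate samples by label, but those of 1 set may share an undefined source. The p-values set a change against the spread among animals within sets. They do not take in how the change varies from set to set.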

Additional observations from a re-analysis of the deposited data

Results flagged for a closer look

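A difference between the strains was flagged for 70 genes, whose change from 400-500 to 500-600 min was lower in tph-1 than in N2 by an interaction test (limma). The 6 largest differences on the log2 scale were in F33H12.7 (-2.98), K11H12.4 (-2.61), lys-2 (-2.40), C49G7.12 (-2.20), F14H12.3 (-2.14) and clec-67 (-2.14). In F33H12.7 the median went from 1.16 to 40.4 RPM in N2 and from 0.540 to 0.690 RPM in tph-1. In K11H12.4 it went from 2.82 to 75.8 RPM in N2 and from 5.03 to 7.88 RPM in tph-1, where the late animals ranged from 0.820 to 1524 RPM. At 550-600 min the K11H12.4 medians were 138 RPM in 13 N2 animals and 92.6 RPM in 7 tph-1 animals, and those of F33H12.7 were 60.7 and 3.69 RPM. The late tph-1 animals were earlier by label than the late N2 animals (means of 538.7 and 547.2 min); the part of this in the result was not tested.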

How the results depend on the processing

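Of 1094 genes higher and 940 lower at 500-600 min, leaving out each of the 47 animals in turn left 733 to 1263 higher and 700 to 1088 lower, and 209 to 310 and 329 to 445 of those that changed by at least 1 log2 unit. The higher genes numbered 647 without set 1, 379 without set 3, 156 in set 2 alone, 202 in set 3 alone, 1686 without animals within 15 min of the border and 2088 as a slope over minutes. The lower genes numbered 403 without set 3, 141 in set 2 alone and 344 in set 3 alone. By at least 1 unit, the higher genes (274) numbered 174 with a pseudocount of 5 RPM, 558 without animals near the border, 458 as a slope, 479 without set 2, 122 in set 2 alone and 175 in set 3 alone; the lower (402) numbered 244 with that pseudocount and 128 in set 2 alone. Of the strain differences, the 70 lower in tph-1 numbered 46 with a mean filter of 10 RPM, 34 without the set covariate, 30 after TMM, 42 with edgeR and 29 without animals near the border; the 0 higher numbered 1 with a pseudocount of 5 RPM, 5 without the set covariate, 3 after TMM, 39 with edgeR and 3 with set as a random block. Smaller subsets hold fewer animals; the cause of the other shifts was not tested.

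For the genes named by rule, 2291 values under alternatives kept their direction and side of the threshold, 234 lost the call, 21 gained it and 39 changed sign. Of the 39, abu-1 in set 3 alone (-0.033) was the 1 gene called in the 47 animals; the rest had not passed. Log2 changes of opposite sign were, in set 2 alone, -0.29 in C49G7.12, -0.004 in F14H12.3, -0.27 in K11H12.4, -0.19 in cpb-1, -0.11 in lim-7 and 0.015 in noah-1. In set 3 alone they were 0.53 in clec-67, -0.018 in daf-28, -0.044 in elt-1, 0.33 in flp-1, 0.82 in lys-2 and 0.039 in myo-3. Without set 3 they were -0.13 in C49G7.12, -0.043 in cpb-1, -0.18 in lim-7, -0.025 in nhr-23 and 0.005 in rpl-1. Without set 2 they were 0.27 in clec-67, 0.22 in flp-1, 0.80 in lys-2 and -0.14 in ndfl-4, and without set 1 0.03 in clec-67 and 0.015 in myo-3. Without the set covariate they were 0.34 in clec-67, 0.016 in lin-39, 0.19 in lys-2, 0.076 in myo-3 and -0.01 in nhr-23. With edgeR they were 0.21 in clec-67, 0.17 in lys-2 and -0.003 in nhr-23. Without animals near the border they were 0.19 in clec-67 and 0.19 in lys-2. As a slope per 100 min they were 0.018 in flp-1 and 0.057 in lys-2, with a pseudocount of 5 RPM 0.045 in clec-67, with log2 reads as a covariate -0.007 in ndfl-4 and with all 6 windows in the fit -0.006 in nhr-23.

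No paired analysis was possible because the replicate numbers were given in accession order and tie no animal of one window to one of the other. The titles do hold a code that starts with CAM, taken here as the recording camera, which animals of both windows can share. With this code within set as a random block, 1001 genes were higher and 1033 lower. Leaving out single animals and comparing sets 2 and 3 were added after the data were seen. Depth limits genes near 1 RPM, where 1 read was worth up to 1.625 RPM.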
